A study of Mus musculus with 10 samples.

Results

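Transcripts of the MHC class I antigen presentation pathway were followed in mouse platelets of 2 ages. The 10 genes are B2m, H2-K1, H2-D1, H2-T23, H2-M3, Tap1, Tap2, Tapbp, Erap1 and Nlrc5, taken by gene symbol from 53819 rows, and each of the 10 had a row. The groups were 5 libraries labelled P7, read here as postnatal day 7, with the letters A, B, C, E and I, and 5 libraries from adult mice, with the letters A, B, C, G and H. The sources used here give no strain, sex or adult age, and do not say whether a library holds 1 animal or a pool. No treatment or allele is named for either age. Platelets are blood cells without a nucleus that carry RNA from the megakaryocytes that shed them.

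Class I molecules display short peptides from inside the cell to CD8 T cells and natural killer cells. Each consists of a heavy chain, a light chain called beta-2 microglobulin and the peptide, which is cut in the cytosol by the proteasome, carried into the endoplasmic reticulum by the TAP transporter, trimmed by ERAP1 and loaded with the help of tapasin. Platelets carry class I molecules on their surface. Transcription of the heavy chain genes and of B2m is driven by NLRC5 and by interferon and NF-kappaB signals through a shared promoter module.

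The promoters of B2m and of both classical heavy chain genes are shown because the results turn on the light chain and on these heavy chains. Each line holds the 250 bases before the annotated start site, from RefSeq on build GRCm38.p6, written 5′ to 3′ on the strand of the gene. Capitals mark matches, on either strand, to the interferon regulatory factor core AANNGAAA, the NF-kappaB consensus, the X2 core TGACG, the Y box CCAAT and the TATA box TATAA.
B2m promoter, + strand, chr2:122147437-122147686: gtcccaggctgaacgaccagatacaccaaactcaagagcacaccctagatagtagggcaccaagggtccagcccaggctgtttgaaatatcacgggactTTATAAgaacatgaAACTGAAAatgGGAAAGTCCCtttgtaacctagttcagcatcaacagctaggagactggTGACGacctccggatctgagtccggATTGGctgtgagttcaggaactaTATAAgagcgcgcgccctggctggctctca
H2-K1 promoter, - strand, chr17:34000348-34000597: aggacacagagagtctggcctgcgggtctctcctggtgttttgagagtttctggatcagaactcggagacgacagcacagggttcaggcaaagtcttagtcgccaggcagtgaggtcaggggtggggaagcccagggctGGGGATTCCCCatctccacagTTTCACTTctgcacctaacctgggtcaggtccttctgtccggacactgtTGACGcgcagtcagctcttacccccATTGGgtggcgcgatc
H2-D1 promoter, + strand, chr17:35262844-35263093: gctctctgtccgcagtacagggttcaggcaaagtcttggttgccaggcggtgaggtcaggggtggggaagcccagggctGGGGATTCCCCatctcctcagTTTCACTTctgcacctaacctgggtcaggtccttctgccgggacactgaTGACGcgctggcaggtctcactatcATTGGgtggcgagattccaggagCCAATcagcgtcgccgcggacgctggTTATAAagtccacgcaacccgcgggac

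All 5 motifs were found in the B2m and H2-D1 windows and 4 of them in the H2-K1 window, which held no TATAA. In H2-K1 and H2-D1 the NF-kappaB match was read on both strands at 2 overlapping positions and counted as 2, and TATAA was read on both strands at overlapping positions in B2m and H2-D1. H2-K1 has 2 promoter entries, of which the more upstream was used. From that start site the H2-K1 matches lie nearer the start than those of H2-D1, with a Y box at -16 to -12 against -76 to -72. The TATAA match of H2-D1, at -27 to -22, lies after its Y boxes. Bases after the H2-K1 start site were not searched, so the lack of TATAA holds for this window only. Of 27025 promoters of this length, 21.6% held the interferon regulatory factor core, 7.03% the NF-kappaB consensus, 17.8% TGACG, 34.5% CCAAT and 23.5% TATAA on either strand. H2-M3 had matches to 4 motifs, H2-T23 and Tap1 to 2, Tapbp to 1 and Erap1 to 0. In H2-M3 a CCAAT match and the NF-kappaB match overlapped. The promoter table had 8 of the 10 members, without Tap2 and Nlrc5. These matches describe letters in the reference sequence and were not tested for binding.

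**Figure D1:**
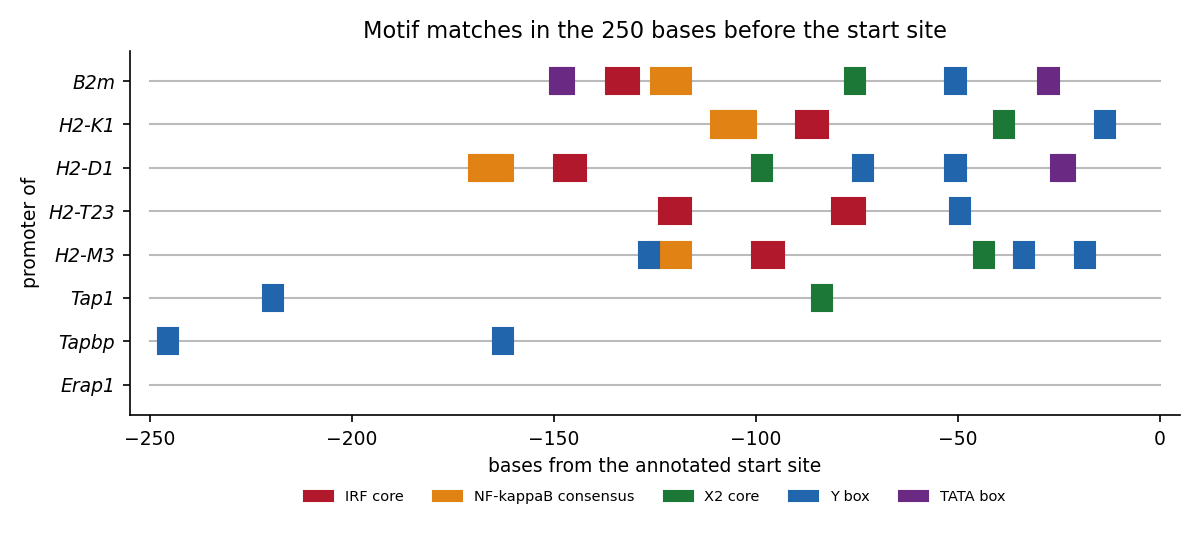
Positions of motif matches in the 250 bases before the annotated start site (horizontal axis, bases from the start site) for the 8 members with a promoter entry, 1 line per gene, with a colour per motif. B2m, H2-K1, H2-D1 and H2-M3 carry an interferon regulatory factor core, an NF-kappaB consensus, an X2 core and a Y box each.

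The P7 libraries held 19431863 to 25029931 counts and the adult libraries 19541997 to 23291269. Of the 53819 rows, 8198 passed a filter on low counts and were tested. Levels are CPM, each count as a share of its library, scaled by TMM factors, and fold changes are P7 over adult from edgeR's quasi-likelihood test, with a call at a Benjamini-Hochberg adjusted p under 0.05. By that rule 27.7% of tested genes were called, 13.8% higher and 13.9% lower at P7. The 15 platelet markers were all tested and summed to 66485 to 89884 CPM in P7 and 66966 to 98103 CPM in adult libraries. Of these 15, 5 were called higher and 4 lower at P7. Among them were Itga2b at a log2 fold change of 0.55, Gp9 at 0.88, P2ry12 at -1.34 and Ppbp at -1.57. Itga2b was the most abundant marker at P7 and Ppbp in adults.

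Of the 10 class I genes 7 passed the filter (B2m, H2-K1, H2-D1, H2-T23, Tap1, Tap2 and Tapbp), and 2 of these, B2m and H2-K1, fell at P7 while 0 rose. Among all tested genes 13.9% were called lower. The median log2 fold change of the 7 was 0.09, beside 0.05 over all genes tested. H2-M3, Erap1 and Nlrc5 stayed under the filter.

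The light chain gene B2m showed the largest age difference of the members tested. It stood at 941, 1218, 1044, 936 and 2101 CPM in P7 A, B, C, E and I, against 5191, 6525, 4432, 5479 and 6912 CPM in adult A, B, C, G and H. The groups did not overlap, and the highest P7 library, P7 I, was below the lowest adult library, adult C. Among all genes tested, 19.8% did not overlap between the ages, and 9.76% were lower at P7 without overlap.

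B2m had a mean of 1248 ± 490 CPM in P7 and 5708 ± 1008 CPM in adult libraries (SD, n = 5 each), which is 4.57-fold lower at P7. The log2 fold change was -2.19 ± 0.22 (SE, edgeR adjusted p = 1.54e-05). By mean CPM B2m ranked 132 among all rows at P7 and 27 in adults. Without P7 I the log2 fold change of B2m was -2.47. The libraries are bulk samples, in which fewer cells of a type and less RNA per cell cannot be told apart.

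H2-K1, a classical heavy chain that presents peptides to CD8 T cells, also fell. Its levels were 199, 176, 146, 139 and 173 CPM in P7 A, B, C, E and I, against 502, 405, 166, 392 and 385 CPM in adult A, B, C, G and H. Adult C lay inside the P7 range, and the other 4 adult libraries lay above each P7 library.

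H2-K1 had a mean of 167 ± 24.1 CPM in P7 and 370 ± 123 CPM in adult libraries (SD, n = 5 each), 2.22-fold lower at P7, with a log2 fold change of -1.15 ± 0.23 (SE, edgeR adjusted p = 0.00201). It was -1.35 without adult C. With P7 A, B and C set against adult A, B and C alone, the call was lost, at -1.08 (edgeR adjusted p = 0.0646). It was also lost with the mean erythroid marker level as a covariate, at -1.30 ± 0.38 (SE, edgeR adjusted p = 0.0637). Age explained 64.4% of the variance of that covariate, so this fit separates age from it only in part.

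H2-D1, the other classical heavy chain, varied more between libraries of an age than between the ages. It stood at 226, 481, 1634, 762 and 1225 CPM in P7 A, B, C, E and I, against 538, 438, 3043, 2147 and 1583 CPM in adult A, B, C, G and H. P7 A and B and adult A and B were low, and P7 C and adult C, G and H were high, and the ages overlapped.

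The highest H2-D1 library was 7.22 times the lowest at P7 and 6.94 times in adults, where the same ratio for H2-K1 was 1.43 at P7 and 3.02 in adults. The SD of log2 CPM of H2-D1 within an age was 1.18, larger than that of 98.6% of the 2024 genes whose mean level reached 20 CPM. H2-D1 had a mean of 866 ± 567 CPM in P7 and 1550 ± 1101 CPM in adult libraries (SD, n = 5 each). Its log2 fold change of -0.84 ± 0.68 (SE) did not pass (edgeR adjusted p = 0.41), and it ran from -1.20 without P7 C to -0.45 without adult C.

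The non-classical heavy chain gene H2-T23, which encodes Qa-1, the ligand of NKG2A receptors on natural killer cells, showed no call. Its levels were 159, 194, 188, 128 and 128 CPM in P7 A, B, C, E and I, against 162, 182, 69.0, 153 and 167 CPM in adult A, B, C, G and H. The ages overlapped, and adult C alone lay below all other libraries. H2-T23 had a log2 fold change of 0.12 ± 0.23 (SE, edgeR adjusted p = 0.74), which was -0.07 without adult C.

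H2-M3, a non-classical heavy chain that presents formylated peptides, was close to the detection limit. It had 2, 0, 0, 2 and 0 counts in P7 A, B, C, E and I, against 1, 5, 1, 8 and 2 counts in adult A, B, C, G and H. With 3 counts as the limit for a count of 0, a library could hold up to 0.120 to 0.154 CPM unseen, depending on its depth. At this depth no age difference was detectable for H2-M3.

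**Figure D2:**
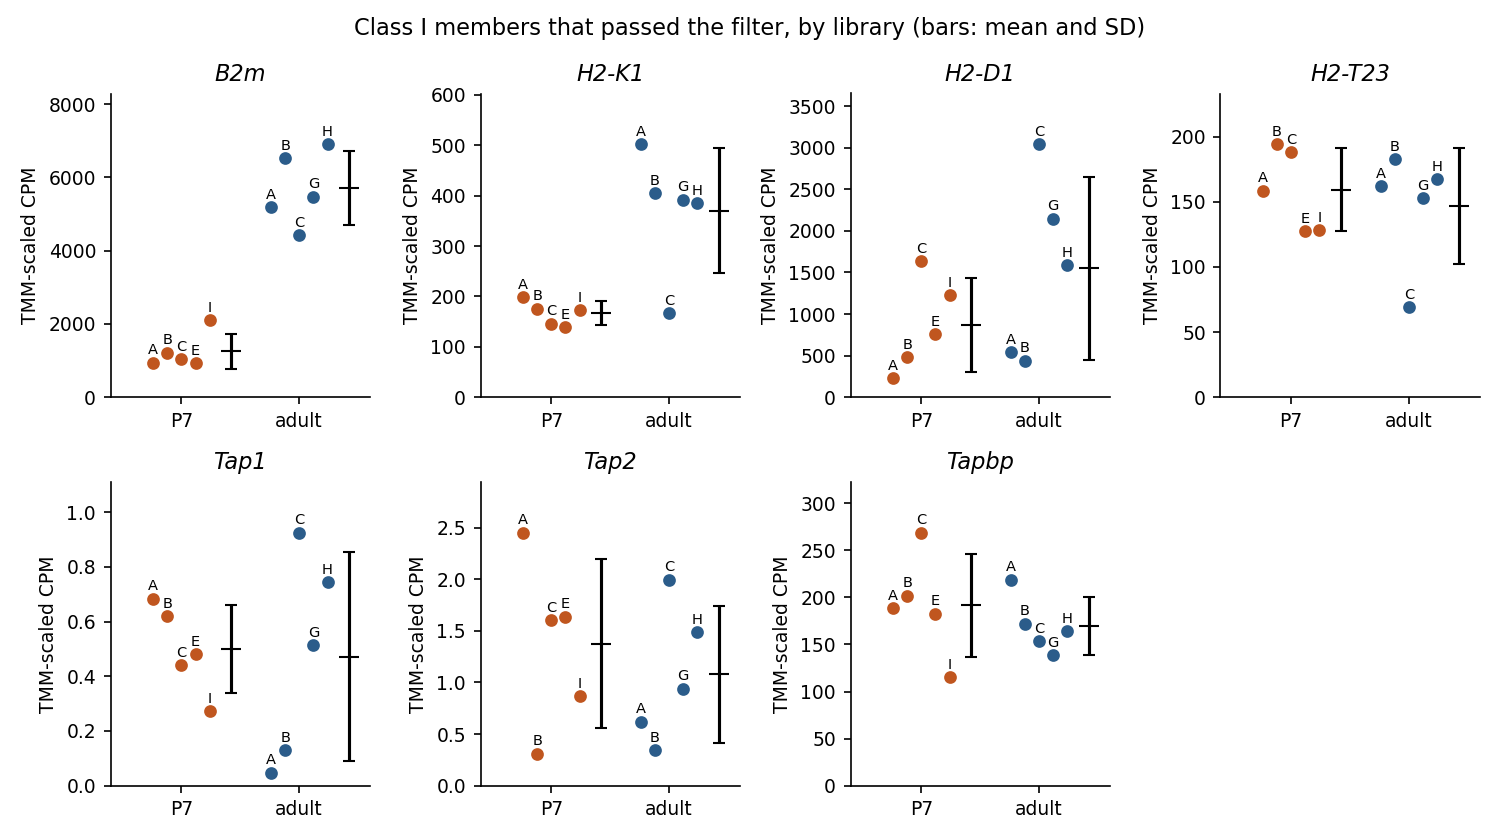
Levels of the 7 members that passed the filter (vertical axes, TMM-scaled CPM, each from 0) in the 5 P7 and 5 adult libraries, with the replicate letter at each point and bars for the mean and SD. B2m separates the ages, H2-K1 does so except for adult C at 166 CPM, and H2-D1 runs from 226 to 3043 CPM with the ages intermixed.

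The tested genes of the peptide route, Tapbp, Tap1 and Tap2, were not called. Tapbp, which encodes tapasin, the bridge between TAP and the empty heavy chain, had 189, 202, 269, 183 and 115 CPM in P7 A, B, C, E and I, against 219, 172, 154, 138 and 164 CPM in adult A, B, C, G and H. The adult libraries lay within the P7 range. Tapbp had a log2 fold change of 0.18 ± 0.20 (SE, edgeR adjusted p = 0.55).

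Both TAP transporter subunits were rare transcripts. Tap1 had 17, 12, 11, 12 and 6 counts in P7 A, B, C, E and I, against 1, 3, 19, 12 and 13 counts in adult A, B, C, G and H. Tap2 had 61, 6, 40, 41 and 19 counts in P7 A, B, C, E and I, against 13, 8, 41, 22 and 26 counts in adult A, B, C, G and H. Both subunits had their lowest adult counts in adult A and B, and the ages overlapped for both.

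Log2 fold changes were 0.09 ± 0.65 for Tap1 and 0.36 ± 0.54 for Tap2 (SE, edgeR adjusted p = 0.93 and 0.65). Mean levels were 0.499 ± 0.160 CPM in P7 and 0.472 ± 0.381 CPM in adult libraries for Tap1, and 1.37 ± 0.818 CPM in P7 and 1.08 ± 0.667 CPM in adult libraries for Tap2 (SD, n = 5 each). The SE exceeded the fold change for both genes.

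Erap1, the aminopeptidase that trims peptides to class I length, had 10, 0, 1, 8 and 6 counts in P7 A, B, C, E and I, against 9, 6, 10, 0 and 10 counts in adult A, B, C, G and H. Nlrc5, the transactivator of class I genes, had 0 counts in each P7 library, against 7, 0, 1, 0 and 0 counts in adult A, B, C, G and H. Of the 8 Nlrc5 counts 7 thus came from adult A. In the edgeR fit without a filter the adjusted p was 0.30 for H2-M3, 0.63 for Erap1 and 0.11 for Nlrc5.

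Per kilobase of the longest coding transcript in GENCODE M21, B2m was the highest member at both ages, at 1451 ± 570 CPM per kb at P7 and 6637 ± 1172 CPM per kb in adult libraries (SD, n = 5 each). By mean H2-D1 followed, with 412 ± 270 CPM per kb at P7 and 737 ± 524 CPM per kb in adults. In P7 A, however, H2-D1 stood at 107.7 CPM per kb, below H2-K1 at 122.8 and level with H2-T23 at 107.7. At P7 H2-T23 and H2-K1 came next at 108 ± 21.6 and 103 ± 14.9 CPM per kb and did not differ beyond their spread. In adults H2-K1, at 229 ± 76.2 CPM per kb, stood above H2-T23, at 99.7 ± 30.4 CPM per kb, and its range overlapped that of H2-D1. Tapbp, at 66.1 ± 18.9 CPM per kb at P7 and 58.5 ± 10.5 CPM per kb in adults, was the last member above 1 CPM per kb.

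Set against H2-K1 in the same library, B2m fell further than this heavy chain. The transcripts differ in GC content, at 41.2% for B2m and 56.3% for H2-K1. Taking out the GC trend brought the genes closer, to log2 fold changes of -1.91 for B2m and -1.45 for H2-K1. The main fit gave -2.19 for B2m and -1.15 for H2-K1. The count ratio was not tested after removal of this trend. The ratio of B2m to H2-K1 counts was 4.73, 6.93, 7.15, 6.71 and 12.1 in P7 A, B, C, E and I, against 10.3, 16.1, 26.6, 14.0 and 17.9 in adult A, B, C, G and H. P7 I exceeded adult A, and the other 4 P7 libraries lay below each adult library. The log2 ratio had a mean of 2.84 ± 0.49 in P7 and 4.02 ± 0.50 in adult libraries (SD, n = 5 each), a difference of -1.17 (two-sided exact permutation p = 0.0159, where 252 splits allow 0.0079 as the smallest).

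Against the sum of H2-K1 and H2-D1 the difference was -1.35 (exact permutation p = 0.0556), and against all 22 heavy chain rows it was -1.63 (exact permutation p = 0.0079, the smallest possible). In that last form the ratio of B2m to heavy chain counts spanned 0.425 to 1.09 at P7 and 1.18 to 4.78 in adults, without overlap. The 22 heavy chain rows summed to 914, 1149, 2459, 1465 and 1929 CPM in P7 A, B, C, E and I, against 1574, 1364, 3740, 3086 and 2489 CPM in adult A, B, C, G and H. The sum overlapped between the ages and had a log2 fold change of -0.63 ± 0.32 (SE).

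**Figure D3:**
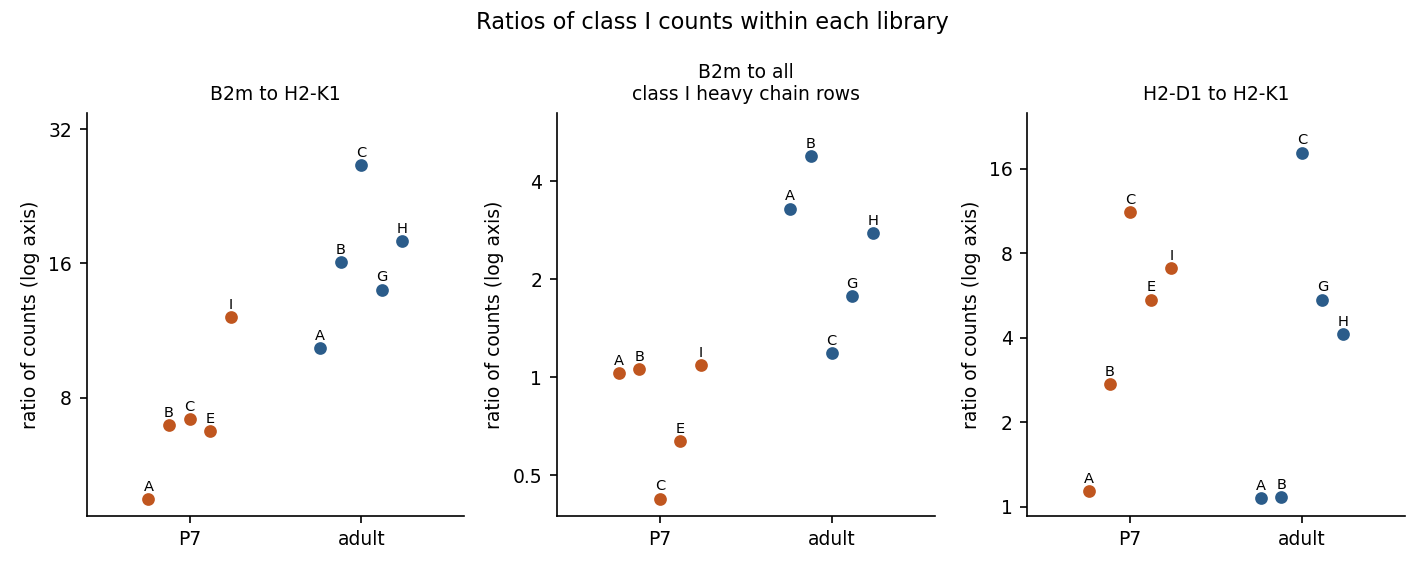
Ratios of class I counts within each library (vertical axes, log scale) for B2m to H2-K1, B2m to the 22 heavy chain rows and H2-D1 to H2-K1, with the replicate letter at each point. The B2m ratios are lower at P7, and the H2-D1 to H2-K1 ratio spans 1.14 to 11.2 at P7 and 1.07 to 18.3 in adults.

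The 2 classical heavy chains did not keep a fixed ratio. The ratio of H2-D1 to H2-K1 counts was 1.14, 2.73, 11.2, 5.46 and 7.07 in P7 A, B, C, E and I, against 1.07, 1.08, 18.3, 5.47 and 4.11 in adult A, B, C, G and H. H2-K1 was thus close to H2-D1 in P7 A and adult A and B, and a small part of the pair in P7 C and adult C. H2-D1 held 24.8 to 66.5% of all heavy chain counts at P7 and 32.1 to 81.4% in adults, and H2-K1 held 5.94 to 21.8% at P7 and 4.45 to 31.9% in adults. H2-T24, which is not a member but is counted in the heavy chain sum, held 14.7 to 29.7% at P7 and 7.49 to 16.7% in adults. In each P7 library this was more than H2-K1 held. H2-T24 had a log2 fold change of 0.28 ± 0.15 (SE) and was not called (edgeR adjusted p = 0.19).

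Some other heavy chain rows also varied widely within an age, as seen in the map of heavy chain rows. H2-Q2 had 11.6, 17.9, 42.2, 17.2 and 28.5 CPM in P7 A, B, C, E and I, against 27.3, 21.5, 59.0, 51.7 and 20.6 CPM in adult A, B, C, G and H. H2-Bl, annotated as a polymorphic pseudogene, had 4, 15, 69, 28 and 50 counts in P7 A, B, C, E and I, against 2, 4, 142, 107 and 1 counts in adult A, B, C, G and H. P7 C and adult C and G were the highest libraries of their age for H2-D1, H2-Q2 and H2-Bl, while adult H was high for H2-D1 and low for H2-Q2 and H2-Bl. These rows, like those of the next paragraph, were chosen after their values were seen.

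Adult C stood apart at several heavy chain rows at once. H2-K2, annotated as a transcribed pseudogene, had 214 to 434 counts at P7, against 794, 758, 41, 542 and 435 counts in adult A, B, C, G and H. H2-Q6 had 15 to 53 counts at P7, against 118, 76, 1, 67 and 101 counts in adult A, B, C, G and H. Adult C was thus the lowest adult library for H2-K1, H2-K2, H2-Q6 and H2-T23 and the highest for H2-D1, H2-Q2, H2-Q4 and H2-Bl.

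**Figure D4:**
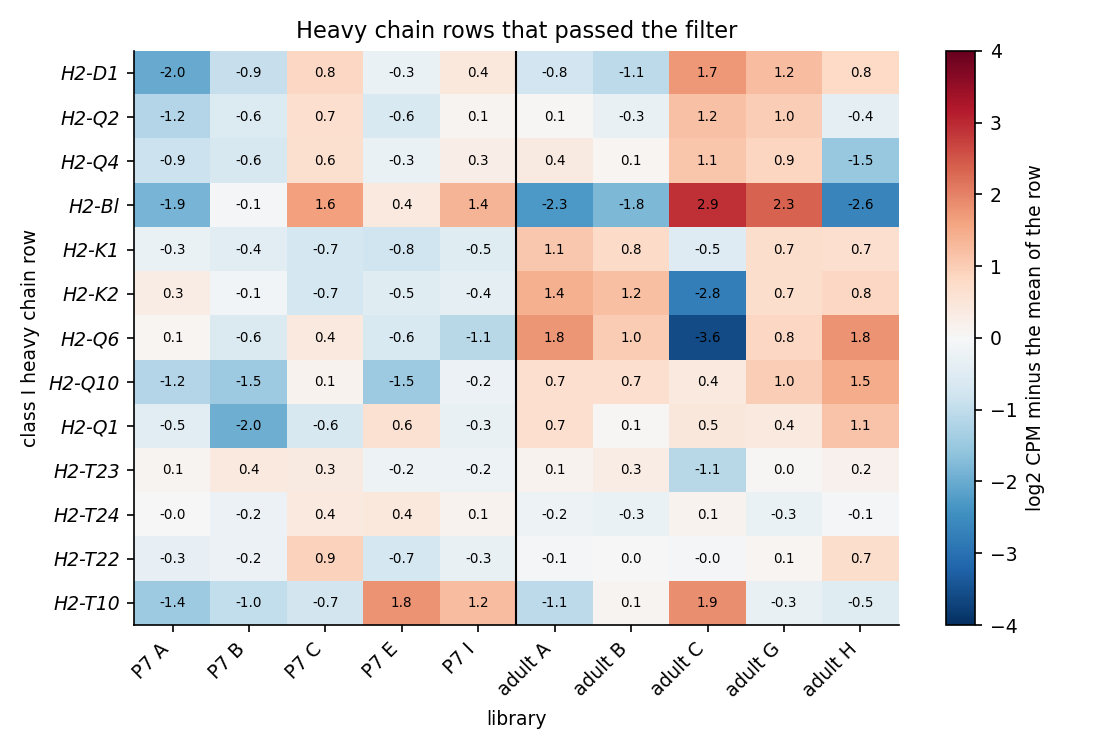
Heavy chain rows that passed the filter (rows) in the 10 libraries (columns, P7 left of the line), coloured by log2 CPM minus the mean of the row. H2-D1, H2-Q2, H2-Q4 and H2-Bl are high in P7 C and adult C and G, and adult C is low at H2-K2, H2-Q6 and H2-T23.

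Class I genes are close relatives, and their reads can be shared. A run of 91 bases is identical in the coding sequences of H2-K1 and H2-D1, and a run of 145 bases in those of H2-D1 and H2-T23, both longer than a 75-base read. They are shown, from GENCODE M21 transcripts of chromosome 17, because a read inside them fits either gene.
H2-K1 and H2-D1: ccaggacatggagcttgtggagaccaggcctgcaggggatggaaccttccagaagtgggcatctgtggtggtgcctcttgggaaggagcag
H2-D1 and H2-T23: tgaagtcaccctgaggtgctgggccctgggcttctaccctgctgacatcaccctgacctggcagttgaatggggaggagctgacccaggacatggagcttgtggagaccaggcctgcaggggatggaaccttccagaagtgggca

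Over all annotated transcripts, 3.1% of the distinct 75-base windows of H2-K1 also occurred in another gene, as did 5.4% of those of H2-D1 and 5.91% of those of H2-T23. H2-K1 shared 89 of 3737 windows with H2-Q10 and 24 with H2-D1, and H2-D1 shared 110 of 2591 windows with H2-Q1 and 71 with H2-T23. Tapbp shared 1.1% of its windows. B2m, H2-M3, Tap1, Tap2, Erap1 and Nlrc5 shared 0 windows. The count holds for exact matches in the reference strain. The H2 haplotypes of the animals are not stated in the labels, so the heavy chain levels and ratios are those of reads assigned to the reference genes, and the part of haplotype in their spread within an age was not tested. Windows that match with mismatches were not counted, and the sources used here do not say how reads that fit several genes were counted.

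Of 18 other heavy chain rows 10 were tested, 1 was called lower and 0 higher, near the 13.9% called lower over all genes, with a median log2 fold change of -0.68 beside 0.05 over all genes. The called row was H2-Q10, a secreted class I molecule best known from liver. It had 1.09, 0.877, 2.85, 0.879 and 2.14 CPM in P7 A, B, C, E and I, against 4.10, 4.12, 3.36, 5.18 and 7.39 CPM in adult A, B, C, G and H. The ages did not overlap, where 9.76% of all tested genes were lower at P7 without overlap. Its log2 fold change was -1.62 ± 0.37 (SE, edgeR adjusted p = 0.00503), and 12.5% of its windows are shared with other genes. Among these is H2-K1, with 89 windows in common and means of 167 CPM in P7 and 370 CPM in adult libraries. Whether H2-K1 reads entered the H2-Q10 row was not tested. With P7 A, B and C against adult A, B and C alone the H2-Q10 call was lost, at -1.29 (edgeR adjusted p = 0.0642).

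**Figure D5:**
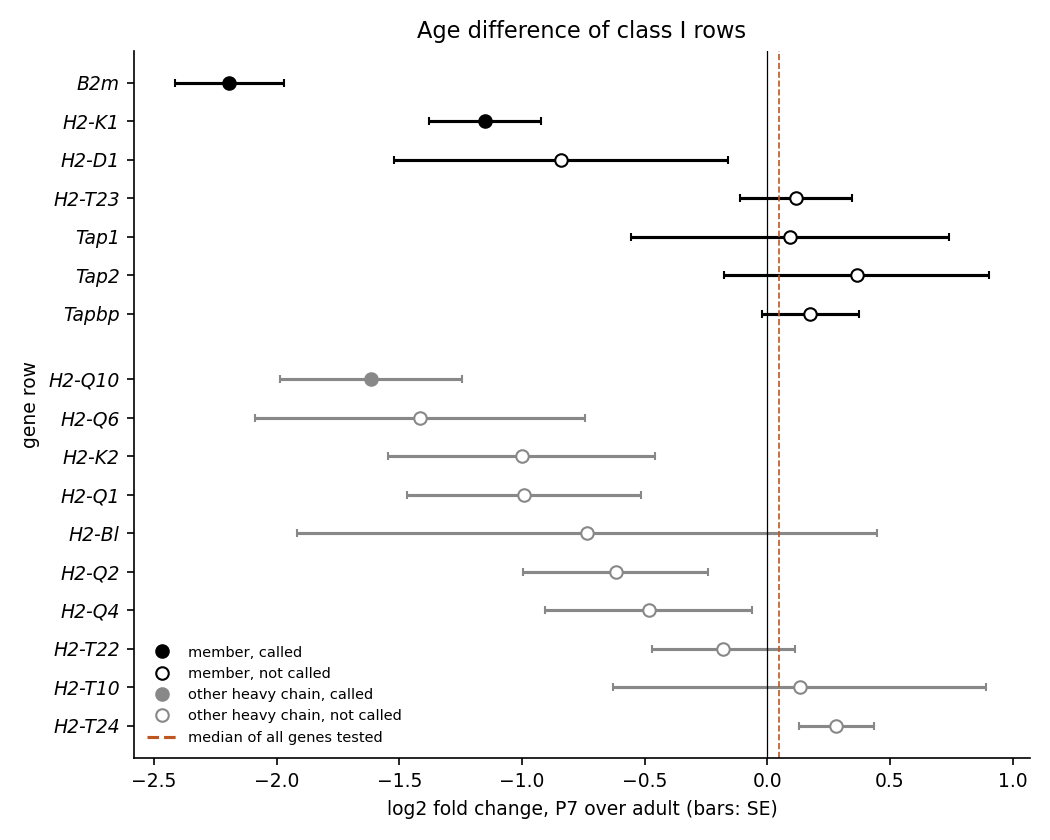
Log2 fold change, P7 over adult, with SE, of the 7 tested members (black) and the 10 other tested heavy chain rows (grey), with filled points for calls at an adjusted p under 0.05. B2m at -2.19, H2-K1 at -1.15 and H2-Q10 at -1.62 are the called rows, and the dashed line at 0.05 is the median of all genes tested.

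Of 12 tested genes that supply peptides, 3 were called higher at P7 and 0 lower, with a median log2 fold change of 0.34, where 13.8% of all genes were called higher. Psmb10, a catalytic subunit of the immunoproteasome, had a mean of 2.25 ± 0.369 CPM in P7 and 0.659 ± 0.244 CPM in adult libraries (SD, n = 5 each), with a log2 fold change of 1.77 ± 0.34 (SE, edgeR adjusted p = 0.00164). Psme1 and Psme2 encode the 2 subunits of the PA28 cap that opens the proteasome. Psme1 had a mean of 51.9 ± 7.35 CPM in P7 and 30.0 ± 3.87 CPM in adult libraries, and Psme2 8.29 ± 0.872 CPM in P7 and 5.28 ± 0.134 CPM in adult libraries (SD, n = 5 each).

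For Psme1 the log2 fold change was 0.79 and for Psme2 0.65 (edgeR adjusted p = 0.00228 and 0.0167). The groups did not overlap for Psmb10, Psme1 and Psme2, where 19.8% of all tested genes did not overlap in either direction. With the mean erythroid level as a covariate Psmb10, at 1.89, and Psme1, at 0.82, lost their calls (edgeR adjusted p = 0.0889 and 0.111). Psme2 lost its call in 7 of 23 alternative settings, among them without P7 E, at log2 fold changes of 0.47 to 0.73. The other immunoproteasome subunits, Psmb8 at 0.84 ± 0.36 and Psmb9 at 1.14 ± 0.41 (log2 fold change ± SE), did not pass (edgeR adjusted p = 0.0978 and 0.0526).

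Of 10 chaperones and editors of the loading route, 1 was called higher and 1 lower, no more than the 13.8% and 13.9% over all genes, with a median log2 fold change of -0.09. Tapbpl, which encodes TAPBPR, a peptide editor related to tapasin, had a mean of 2.69 ± 0.810 CPM in P7 and 0.822 ± 0.472 CPM in adult libraries (SD, n = 5 each; log2 fold change 1.70, edgeR adjusted p = 0.00872). Its levels did not overlap between the ages, where 19.8% of all tested genes did not overlap in either direction. Its call was lost in 4 of 23 alternative settings, and with the mean erythroid level as a covariate the log2 fold change was 0.81 (edgeR adjusted p = 0.52). Sec61a1, of the channel that threads heavy chains into the endoplasmic reticulum, was lower, at -0.57 (edgeR adjusted p = 0.0436), a call lost in 15 of 24 alternative settings, among them without any 1 of the P7 libraries and without adult A, B or G. Calr, Canx and Pdia3, the general chaperones of the loading complex, had log2 fold changes of -0.05, -0.07 and 0.01 and were not called.

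Of 19 tested regulators of class I transcription, 2 were called higher and 1 lower, a smaller share than the 27.7% called over all genes, with a median log2 fold change of 0.09. Rela, the p65 subunit of NF-kappaB, had a mean of 10.7 ± 1.42 CPM in P7 and 5.07 ± 1.39 CPM in adult libraries (SD, n = 5 each; log2 fold change 1.08, edgeR adjusted p = 0.00290). The receptor gene for type I interferon Ifnar1 had a mean of 6.67 ± 1.44 CPM in P7 and 11.6 ± 2.53 CPM in adult libraries (SD, n = 5 each), a log2 fold change of -0.80 (edgeR adjusted p = 0.0139). The Ifnar1 call was lost in 2 of 23 alternative settings, at -0.60 with the mean erythroid level as a covariate (edgeR adjusted p = 0.37). The interferon gamma receptor gene Ifngr2 was called higher, at 1.08 (edgeR adjusted p = 0.0430), and lost its call in 14 of 23 alternative settings, among them without P7 A, C, E or I and without adult A, B, C or G. Irf1, which carries interferon signals to class I promoters, had a log2 fold change of 0.79 ± 0.88 (SE) and was not called.

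Of 2 tested class I-like molecules, 1 was called higher and 0 lower, with a median log2 fold change of 0.17, where 13.8% of all genes were called higher. Cd1d1, which presents lipids to natural killer T cells, had a mean of 2.71 ± 1.22 CPM in P7 and 1.21 ± 0.539 CPM in adult libraries (SD, n = 5 each; log2 fold change 1.16, edgeR adjusted p = 0.0339), a call lost in 10 of 23 alternative settings, among them without P7 C or E and without adult A, C, G or H. With the mean erythroid level as a covariate the log2 fold change of Cd1d1 was 0.015 (edgeR adjusted p = 0.99). Of 6 tested genes of class II presentation, 1 was called higher and 0 lower, close to the same 13.8%, with a median log2 fold change of 0.46. H2-Aa, a class II chain of antigen presenting cells, had 6.65 ± 1.06 CPM in P7 and 3.34 ± 1.46 CPM in adult libraries (SD, n = 5 each; log2 fold change 1.00, edgeR adjusted p = 0.0164). The H2-Aa call was lost with the summed and with the mean erythroid level as a covariate, at 0.71 and 0.51 (edgeR adjusted p = 0.16 and 0.56).

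Nucleated blood cells carry class I transcripts too, and the levels of their markers are therefore given. Summed T and NK markers (5 of 14 tested) ran from 8.56 to 12.03 CPM in P7 and 12.5 to 21.8 CPM in adult libraries. Nkg7, the most abundant, had means of 3.74 CPM in P7 and 9.71 CPM in adult libraries. Apart from Nkg7 and Trac, no T and NK marker had a mean above 1.44 CPM, and these others went in both directions. Dendritic cell markers (5 of 6, most abundant Xcr1) ran from 26.3 to 46.8 CPM in P7 and 58.8 to 94.4 CPM in adults. Xcr1 and Clec9a made up most of the dendritic cell sum. No other dendritic cell marker had a mean above 3.08 CPM, and these others went in both directions. Monocyte markers (3 of 10, most abundant Lyz2) ran from 2240 to 3452 CPM in P7 and 2907 to 6077 CPM in adult libraries. Lyz2 made up nearly all of this sum, at means of 2762 CPM in P7 and 4357 CPM in adult libraries. No other monocyte marker had a mean above 1.80 CPM at either age, and these others went in both directions. B cell markers (3 of 9, most abundant Ighm) ran from 7.93 to 23.8 CPM in P7 and 3.22 to 6.46 CPM in adult libraries. Neutrophil markers (2 of 15, most abundant Trem1) ran from 40.4 to 70.4 CPM in P7 and 13.0 to 36.6 CPM in adult libraries, with Ly6g and Cxcr2 at 0 counts in all 10 libraries. Trem1 made up most of the neutrophil sum, at means of 53.6 CPM in P7 and 18.7 CPM in adult libraries. Called lower at P7 were 1 T and NK, 2 dendritic cell and 1 monocyte marker, and called higher were 1 B cell and 1 neutrophil marker. Over all tested genes 13.9% were called lower and 13.8% higher.

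Endothelial markers (4 of 7, most abundant Pecam1, which platelets also carry) ran from 818 to 1101 CPM in P7 and 724 to 996 CPM in adult libraries. Pecam1 made up most of this sum, at 766 CPM in P7 and 836 CPM in adult libraries, and was not called. Plvap, at 123 CPM in P7 and 45.6 CPM in adult libraries, and Cdh5, at 3.91 CPM in P7 and 0.498 CPM in adult libraries, were called higher (edgeR adjusted p = 0.000335 and 0.0312), as 2 of the 4 tested. Over all tested genes 13.8% were called higher. Erythroid markers (11 of 15, most abundant Hba-a1) ran from 911 to 2522 CPM in P7 and 553 to 1758 CPM in adult libraries. Of the 11 tested, 2 were called higher, beside the same 13.8% over all genes. Hba-a1 made up most of this sum, at means of 1491 CPM in P7 and 903 CPM in adult libraries, and was not called. The summed erythroid level is thus largely the level of Hba-a1. With the summed erythroid level as a covariate B2m was at -2.69 ± 0.22 and H2-K1 at -1.30 ± 0.31 (log2 fold change ± SE), and both passed. With the mean log2 erythroid level as a covariate B2m was at -2.08 ± 0.35 and passed (edgeR adjusted p = 0.00767). The part of the leukocyte and endothelial markers in the B2m and H2-K1 differences was not tested.

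Among 2019 other genes at a mean level of 20 CPM or more, those most like B2m over the 10 libraries were Ube2b, Psmg2, Gm28417, Cysltr2 and Med12l, with Pearson's r of log2 CPM from 0.985 to 0.994. All 10 libraries and the age difference enter these values, which are a description. Within an age, over 5 libraries, r with B2m was 0.796 to 0.986 at P7 and 0.727 to 0.987 in adults. Psmg2, a proteasome assembly chaperone gene, had a log2 fold change of -1.43, and Cysltr2, a receptor gene for cysteinyl leukotrienes, one of -1.95. For H2-K1, by the same measure added later, the closest genes were Mbnl2 and Gm10499 (r = 0.983 and 0.970), and for H2-D1 the closest was H2-Q2 (r = 0.857), which shares none of the 75-base windows of H2-D1. Gm10499 shares 5 of the windows of H2-K1 and 15 of those of H2-D1.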

How the data were processed

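Platelet RNA from 5 P7 and 5 adult libraries was measured by polyA RNA-seq. Per the labels' protocols, RNA came from Trizol extraction, cDNA was amplified with a SMARTer low-input kit, libraries were made with Nextera XT, and single-end reads of 75 bases were generated. The authors deposited 1 whole-number count per gene symbol and library, without normalization. Per the submitters' processing notes, the tools were Salmon 1.5.2, STAR 2.7.9a, featureCounts, Subread 2.0.1 and fastp 0.23.1, whose roles are not stated. The sources used here give no genome build, strandedness or rule for reads that fit several genes. Without molecular identifiers, the limits given for counts of 0 reflect counting error alone. Nothing says that libraries came from separate animals, and the p-values therefore reflect only how far these libraries spread, which may be technical.

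Low rows were dropped by the default filterByExpr (a count of 10, a total of 15). After TMM scaling, age differences were tested in edgeR by quasi-likelihood with robust dispersions, age as the only term and Benjamini-Hochberg adjustment over the 8198 genes tested (edgeR 4.0.16, limma 3.58.1, DESeq2 1.42.0, R 4.3.3). The fits were tested on simulated data. For a ratio of 2 genes, an exact permutation test over libraries (two-sided) was used. Transcript lengths, GC content and shared windows came from GENCODE M21, and promoters from RefSeq. Alternatives were other scalings, tests and filters, each library left out, the replicate letters as a block, summed heavy chain rows, erythroid markers removed or as a covariate, and removal of the GC trend. The covariate of mean log2 erythroid level was added after seeing the data. Age explained 64.4% of the variance of this mean level and 44.0% of that of the summed level. Fits with either covariate therefore separate age from erythroid level only in part.

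The members, pathway lists, marker lists and alternatives were chosen with earlier results of these data known. Named genes were the 10 members, up to 4 called genes of each pathway list, the 5 genes most like B2m and the most abundant marker of each list at either age. Psmb8, Psmb9, Calr, Canx, Pdia3, Irf1, Gp9, P2ry12, Plvap, Cdh5, Trac, Clec9a, Ly6g, Cxcr2, Mbnl2 and Gm10499 fall outside this rule. So do the heavy chain rows H2-K2, H2-Q2, H2-Q4, H2-Q6, H2-T10, H2-T22, H2-T24 and H2-Bl. All of these were named after their values were seen. The entries H2-L, H2-Q8, H2-Q9, H2-T9, H2-T26 and Ahsp were not found as rows and are not analysed here.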

Additional observations from a re-analysis of the deposited data

Results flagged for a closer look

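In 38 sets of 5 values, the levels of class I rows and their sums and ratios within an age, 5 had a sample far from the other 4, where chance gives about 1 in 20. That rate holds for independent, normally distributed values. The sets here share rows and libraries, so the 5 cannot be set against it. B2m was at 2101 CPM in P7 I, with the other P7 libraries at 936 to 1218 CPM. H2-T23 was at 69.0 CPM in adult C, with the other adult libraries at 153 to 182 CPM. H2-T10 was at 2.39 CPM in adult C, with the others at 0.238 to 0.644 CPM. H2-T22 was at 17.1 CPM in P7 C, with the other P7 libraries at 5.48 to 7.64 CPM, and at 14.8 CPM in adult H, with the other adult libraries at 8.63 to 9.54 CPM.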

How the results depend on the processing

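B2m kept its call and direction in all 24 alternative settings, at log2 fold changes of -2.69 to -1.91, and H2-K1 in 21 of 23, at -1.45 to -0.94. H2-D1 and Tap2 kept their lack of a call. Members called lower numbered 1 with the letters A to C not blocked, with the heavy chain rows summed to 1 row (which leaves fewer members by construction) and with the mean erythroid level as a covariate. The log2 fold change of H2-T23 changed sign with the summed erythroid covariate (-0.13), the mean erythroid covariate (-0.29), the GC trend removed (-0.11) and without adult C, with each library left out giving -0.072 to 0.19. That of Tap1 did so with the GC trend removed (-0.22) and without P7 A, adult A or adult B (each library left out gave -0.21 to 0.48), and that of Tapbp with the GC trend removed (-0.16) and the mean erythroid covariate (-0.48). The cause was not tested.

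Over all genes, 569 were higher and 646 lower with a mean of at least 10 CPM, which leaves fewer genes tested, 660 and 745 with the summed erythroid covariate and 164 and 256 with the mean erythroid covariate, against 1132 and 1140. DESeq2 called 5 pathway genes lower, against 3. The labels do not say whether the letters A to C pair the samples. P7 and adult libraries of the same letter had correlations of deviations of -0.18, 0.10 and -0.07, and 3 such pairs cannot decide it. The SE of the H2-D1 log2 fold change was 1.17 in the libraries of these letters and 0.26 with the letters as a block. With the letters as a replicate block in these 6 libraries, 660 genes were higher and 756 lower, H2-Q10 was not called (-1.46, edgeR adjusted p = 0.0774), and the B2m to H2-K1 ratio differed by -1.41 (sign-flip exact p = 0.25, the smallest 3 pairs allow). The difference in that ratio was -1.35 against H2-K1 plus H2-D1, and -1.36 to -0.99 with each library left out. Depth limits what can be said of Tap1, Tap2, H2-M3, Erap1 and Nlrc5.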
